A study of Mus musculus with 2 samples.

Results

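YAP and TAZ, encoded by Yap1 and Wwtr1, and their target genes Cyr61, Ctgf, Ankrd1, Amotl2, Axl, Ajuba, Lats2 and Myof were compared between control and senescent AML12 cells. The Ensembl identifiers of the count table were matched to GENCODE M21 symbols, in which Cyr61 and Ctgf are listed as Ccn1 and Ccn2. All 10 genes were found among the 35275 genes of the table. AML12 is a non-transformed mouse hepatocyte line that was established from a mouse carrying a human TGF-alpha transgene, and the labels give CD-1 strain, liver, male and 3 months for both groups. The control cells, titled Young, were untreated. The senescent cells, titled Old, were exposed to hydrogen peroxide in serum-free medium on 6 days for 1 h each. The dose was first 1 mM and then 750 μM, and the cells recovered in complete medium, which holds serum, for 23 h every time. Whether the control cells also had hours without serum is not given in the sources used here. Each condition was represented by a pool of RNA from 3 samples, sequenced as 1 poly(A) library.

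YAP and TAZ are transcriptional co-activators without a DNA-binding domain of their own, and they reach their target genes mainly through the TEAD transcription factors. In the Hippo pathway, the MST kinases (Stk3 and Stk4) with the scaffold Sav1 activate the LATS kinases, which act together with the MOB1 proteins and phosphorylate YAP and TAZ. The phosphorylated proteins are held in the cytoplasm by 14-3-3 proteins or degraded, so that the activity of the pathway is set largely at the protein level. In the liver, YAP is known for its control of organ size and for the biliary gene programme that hepatocytes take on when it is active.

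The control library held 28021941 counted reads and the senescent library 25738075. Counts were scaled by the TMM method, with factors of 1.04 and 0.964, and each gene is given by a log2 ratio of senescent over control with a 95% interval, in parentheses, by the Clopper-Pearson method on the share of its reads that were senescent. The intervals cover counting error only and not the spread between cultures. The library protocol names no molecular tags, so reads copied from the same molecule cannot be told apart by tags. The intervals may therefore be too narrow even for counting error. The differences have no replicate check, since each condition was 1 library, and they carry no p-value. A gene was called higher or lower if it had 10 or more reads in the 2 libraries together, a log2 ratio beyond 1.5 either way and an interval that did not contain 0. In bulk RNA, fewer cells with a transcript and less of it per cell cannot be told apart.

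The 8 target genes did not move in one direction. Cyr61 fell, and it was the only 1 of the 10 genes past the threshold, where 5.60% of the 14383 genes with at least 10 reads were called lower and 2.71% higher. Myof and Ctgf had the highest ratios of the 10, 1.23 and 0.68, and the median of the 8 target genes was -0.021 beside -0.015 over all genes tested. Of the 8 targets, 4 had a ratio above 0 and 4 below it. With total-count scaling, which moved the median of all genes by -0.11, Ajuba went from 0.054 to -0.053 and the split became 3 and 5. The other 9 of the 10 genes kept their sign under all 3 other scalings. The counting interval lay above 0 for 5 of the 10 genes and below 0 for 4, where it did so for 34.0% and 34.6% of all genes tested. All 10 genes had at least 10 reads, and the fewest reads of any of them were 1726 for control (Lats2) and 583 for senescent cells (Cyr61).

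**Figure D1:**
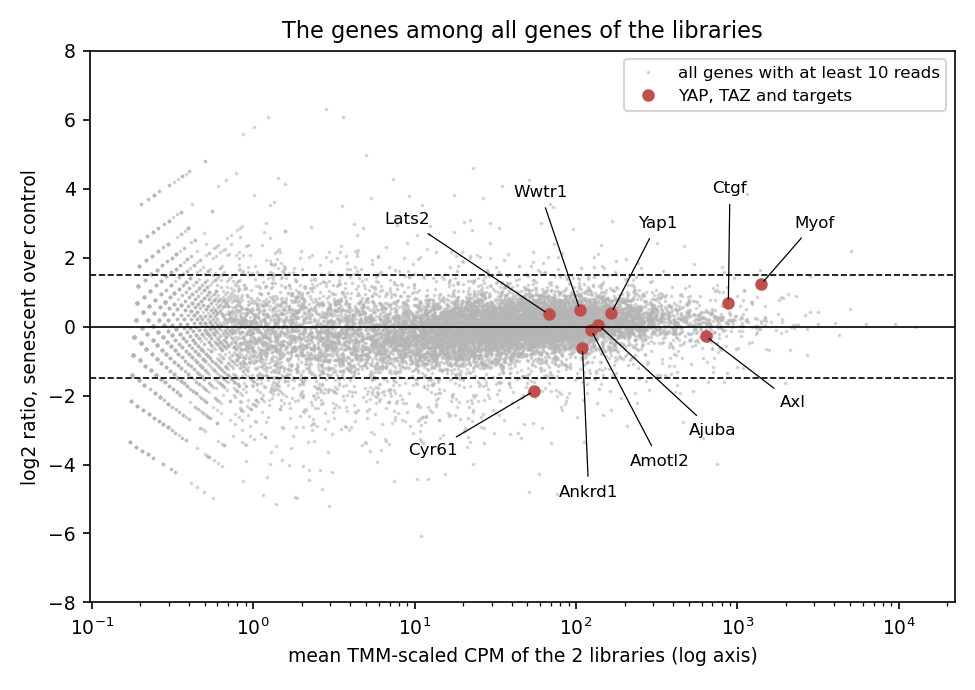
Each grey point is 1 of the 14383 genes with at least 10 reads, placed by its mean TMM-scaled CPM (reads relative to library size) over the 2 libraries (log axis) and its log2 ratio of senescent over control; the 10 genes are in red, the solid line marks 0 and the dashed lines mark 1.5 in either direction. Cyr61 lies under the lower dashed line at -1.87, and Myof, at 1.23, stays inside the upper one.

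The co-activators themselves were present in both libraries. Yap1 (ENSMUSG00000053110; chromosome 9, 7931999 to 8004596 on the minus strand of GRCm38) had 4175 control and 4648 senescent reads and a ratio of 0.38 on the log2 scale (0.32 to 0.45). Wwtr1 (ENSMUSG00000027803; chromosome 3, 57455649 to 57575910, minus strand) had 2582 and 3063 reads and a ratio of 0.48 on the log2 scale (0.40 to 0.55). Both were somewhat higher in the senescent library, at percentiles 76.7 and 81.1 of the ratios of all genes tested, and neither was near the threshold. In TMM-scaled RPKM, which divides the reads by library size and by the annotated exon length, Yap1 stood at 15.5 for control and 20.2 for senescent cells and Wwtr1 at 18.6 and 25.8. Which of the pair has the higher level depends on the length used: with the longest annotated transcript in place of all exons, Yap1 was at 27.2 and 35.5 and Wwtr1 at 18.9 and 26.3.

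Cyr61 and Ctgf encode secreted matricellular proteins of the CCN family that bind integrins, and they are widely used readouts of YAP and TAZ. Cyr61 (ENSMUSG00000028195; chromosome 3, 145646976 to 145649981, minus strand) was counted 2506 times in the control but only 583 times in the senescent library. Its log2 ratio was -1.87 (-2.01 to -1.74), 3.66-fold lower, at percentile 3.80 of all genes tested. Ctgf (ENSMUSG00000019997; chromosome 10, 24595442 to 24598683, plus strand) had 19633 and 26898 reads and a ratio of 0.68 on the log2 scale (0.66 to 0.71) at percentile 88.6. The pair thus moved apart: control cells gave 7.83 Ctgf reads for each Cyr61 read and senescent cells 46.1, a comparison within each library that does not depend on the scaling between them. Exons of Ctgf overlap those of the antisense gene Gm15270 over 665 bases, and Gm15270 had 1464 and 2171 reads; the use of strand in counting is not given in the sources used here, so reads from the shared bases cannot be assigned. Likewise, exons of Yap1 overlap the antisense gene Gm20416 over 116 bases, with 23 and 25 reads. Exons of Lats2 share 2955 bases with Gm49361 on the same strand, a gene that is not among those counted. The promoter of Cyr61 is shown because it is the gene that fell. The 250 bases before its RefSeq start site lie at chr3:145649986-145650235 (GRCm38.p6, minus strand) and are printed 5′ to 3′, with the TEAD core motif in capitals, here on the opposite strand:
Cyr61: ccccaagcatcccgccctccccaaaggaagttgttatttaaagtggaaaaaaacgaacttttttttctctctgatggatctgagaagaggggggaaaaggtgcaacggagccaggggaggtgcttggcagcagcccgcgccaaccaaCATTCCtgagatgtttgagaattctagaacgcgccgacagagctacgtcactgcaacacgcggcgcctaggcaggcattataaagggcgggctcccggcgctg

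The other CCN genes were compared with them. Wisp1 (Ccn4) had 2177 control and 464 senescent reads and a ratio of -2.00 on the log2 scale (-2.15 to -1.86), and Wisp2 (Ccn5) had 35 and 6 reads and a ratio of -2.15 on the log2 scale (-3.86 to -1.05). Both were called lower. Nov (Ccn3), with 3 and 0 reads, and Wisp3 (Ccn6), with none, were under 10 reads. Thus 3 of the 4 CCN genes with enough reads fell, beside 5.60% of all genes tested, and Ctgf was the exception. Wisp2 was not called with a minimum of 100 reads. Per length, Ctgf made up 80.6% of the CCN transcripts of control cells and 96.2% of those of senescent cells, while Cyr61 went from 14.6% to 2.95% and Wisp1 from 4.59% to 0.853%.

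Ankrd1 encodes a nuclear and sarcomeric ankyrin repeat protein that is strongly induced by YAP in many cells. It had 3859 control and 2154 senescent reads and a ratio of -0.61 on the log2 scale (-0.69 to -0.54), the second lowest of the targets and inside the threshold. Its RefSeq promoter, chr19:36119845-36120094 on the minus strand, is shown beside that of Cyr61 because the motif stands in it more than once:
Ankrd1: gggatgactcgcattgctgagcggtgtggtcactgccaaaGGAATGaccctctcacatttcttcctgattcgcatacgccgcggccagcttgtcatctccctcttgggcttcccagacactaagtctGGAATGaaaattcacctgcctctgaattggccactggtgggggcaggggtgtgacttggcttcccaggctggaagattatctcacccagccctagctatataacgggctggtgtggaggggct

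Myof encodes myoferlin, a membrane protein of the ferlin family that takes part in membrane repair and receptor recycling. It had the most reads of the 10 genes, 24442 for control and 48746 for senescent cells, and a ratio of 1.23 on the log2 scale (1.20 to 1.25), 2.34-fold higher, at percentile 96.0. It was not called at 1.5 but would pass a threshold of 1, as 5.09% of all genes tested did upwards and 9.98% downwards. Its promoter, chr19:38043578-38043827 on the minus strand, is shown as that of the target with the highest ratio, and it holds no match to the motif:
Myof: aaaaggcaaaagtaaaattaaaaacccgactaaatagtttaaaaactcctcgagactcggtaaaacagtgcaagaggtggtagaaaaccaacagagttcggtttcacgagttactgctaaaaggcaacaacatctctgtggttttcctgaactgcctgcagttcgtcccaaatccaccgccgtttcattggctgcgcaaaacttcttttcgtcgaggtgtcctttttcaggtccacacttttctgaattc

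Axl encodes a receptor tyrosine kinase that is bound by GAS6 and is a known YAP target in liver tumours. It had 20268 and 14296 reads and a ratio of -0.27 on the log2 scale (-0.30 to -0.24). Amotl2, Lats2 and Ajuba act back on the pathway: AMOTL2 binds YAP and retains it at junctions and actin filaments, LATS2 phosphorylates it, and AJUBA binds and restrains the LATS kinases. Amotl2 had 3725 control and 2972 senescent reads and a ratio of -0.096 on the log2 scale (-0.17 to -0.026). For Lats2 the reads were 1726 and 1889 and the log2 ratio was 0.36 (0.26 to 0.45). Ajuba had 3921 and 3471 reads. Its ratio of 0.054 on the log2 scale (-0.013 to 0.12) is the only 1 of the 10 whose counting interval holds 0. Among the ratios of all genes tested, the feedback genes were at percentiles 44.8 for Amotl2, 54.9 for Ajuba and 75.3 for Lats2.

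**Figure D2:**
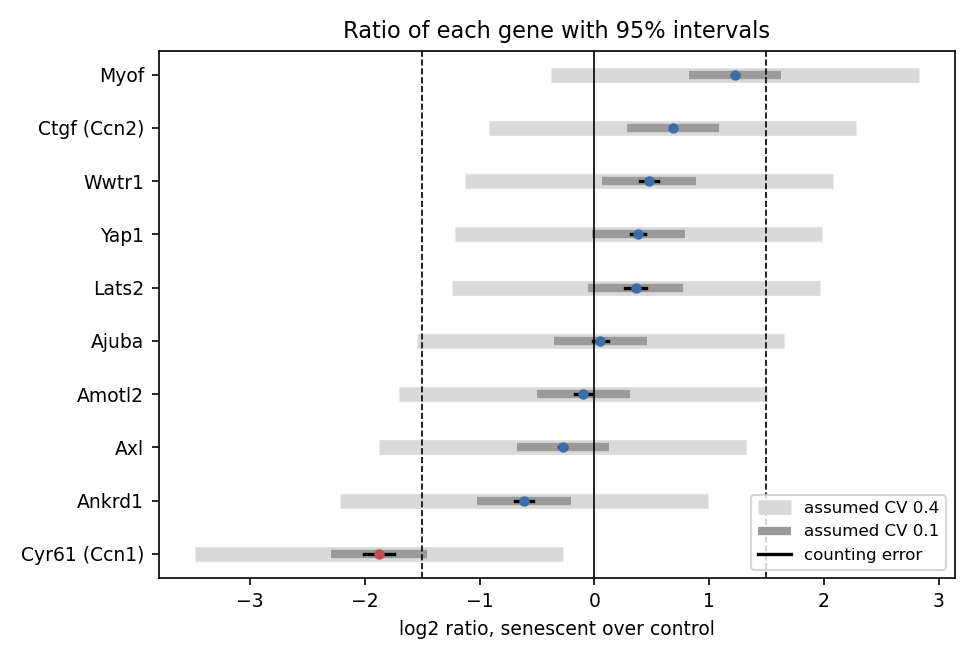
Log2 ratio of senescent over control for each of the 10 genes (points, in red where past 1.5), with 95% intervals from counting error alone (black) and widened for an assumed CV, the biological coefficient of variation, of 0.1 (dark grey) or 0.4 (light grey); dashed lines mark 1.5 in either direction. The widest interval of Cyr61, -3.48 to -0.27, stays below 0, and those of the other 9 genes hold 0.

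The spread between cultures was not measured, so the intervals were also widened for assumed values of it. At an assumed coefficient of variation of 0.1, 5 of the 10 genes had an interval without 0, and at 0.4 only Cyr61 did. The share of all genes tested with such an interval was not counted at these values, so the 2 counts have no background beside them. Of the 14383 genes tested, 261 were called higher and 595 lower past 1.5 at an assumed 0.4. At 0.1 the interval of Myof ran from 0.83 to 1.63, that of Ctgf from 0.28 to 1.08 and that of Ankrd1 from -1.02 to -0.20, while those of Yap1 (-0.020 to 0.79) and Lats2 (-0.051 to 0.77) held 0.

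The order of the genes by level per length changed most at Cyr61, which went from rank 5 to rank 9 of 10. Ctgf was first in both libraries, with an RPKM of 236 in the control that became 379 after treatment. Axl (138) and Myof (66.7) followed in the control, and they changed places in the senescent library, with Myof at 156 and Axl at 115. Ankrd1 and Cyr61 were next to each other in the control, at 46.0 and 42.7. In the senescent library Ankrd1 was at 30.1 and Cyr61 at 11.6, beside Lats2 at 10.9. The counting intervals of these last values, 10.7 to 12.6 for Cyr61 and 10.4 to 11.4 for Lats2, overlap, and with the longest annotated transcript as length Cyr61 was the lowest of the 10. Ajuba (37.0 and 38.4) and Amotl2 (20.4 and 19.1) kept nearly the same level in both libraries.

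**Figure D3:**
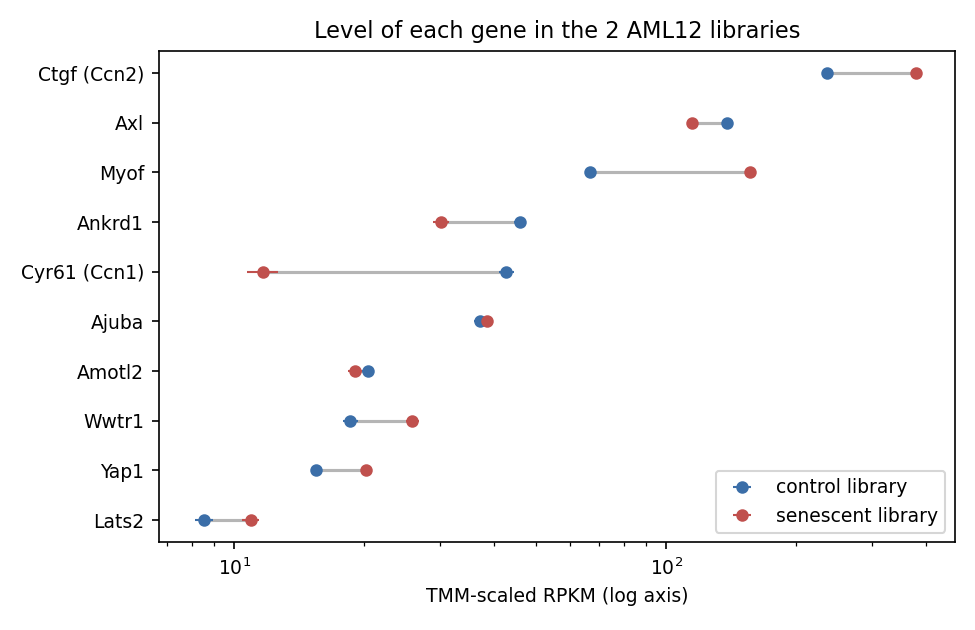
Level of each of the 10 genes in the control (blue) and the senescent library (red), in TMM-scaled RPKM on a log axis, sorted by the control; bars are exact 95% Poisson intervals of the count and are mostly hidden by the points. Cyr61 goes from 42.7 to 11.6 and Myof from 66.7 to 156, while the points of Ajuba lie close together.

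The promoter windows, from 250 bases before to 50 bases after each start site, were taken from RefSeq on GRCm38.p6 and searched on both strands for the TEAD core motif GGAATG, which reads CATTCC on the opposite strand. Windows were matched for 9 of the 10 genes, all but Ctgf. The motif was found for 8 of the 9, all but Myof, where 16.6% of all 27025 genes with a window held it in at least 1 of theirs. The motif was held by 14.7% of the 10394 of these genes that had at least 10 reads. It began 103 bases before the start in Cyr61, 65 before it in Amotl2, 186 and 164 before it in Ajuba, 210 and 123 before it in Ankrd1, and 5 bases after the start in Lats2. With the 5-letter core GGAAT, which every match of the longer motif contains, 8 of 9 genes again held a match. The share was 42.2% of all genes with a window and 36.5% of those with at least 10 reads. The AP-1 motif TGANTCA, which was chosen after seeing the data, was found in none of the 9 genes. It was found in 8.97% of all genes with a window and 6.58% of those with at least 10 reads, and 9 genes are too few to tell none from these shares. The second start site of Lats2 had no match to the longer motif. The 8 targets were chosen as known targets of YAP and TAZ, a match is only a run of letters, and binding was not tested. The bases around the motif in the remaining genes are printed 5′ to 3′ on the strand of the gene, with the motif in capitals, to show how its flanks differ; they lie at chr9:8004721-8004748 (Yap1, minus strand), chr3:57576030-57576057 (Wwtr1, minus), chr7:25788950-25788977 (Axl, minus), chr9:102717728-102717755 (Amotl2, plus), chr14:54577831-54577858 (Ajuba, minus) and chr14:57746103-57746130 (Lats2, minus):
Yap1: gggagtctgcaGGAATGtagcgacgcgc
Wwtr1: gtaaactcaaaGGAATGcagataggcgc
Axl: gaaattctacaGGAATGtttaccagacc
Amotl2: tgaaactctcaCATTCCtggcatagcag
Ajuba: gttgatggataCATTCCacagtgcccct
Lats2: gtgacgcccgtGGAATGccaacaatgta

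**Figure D4:**
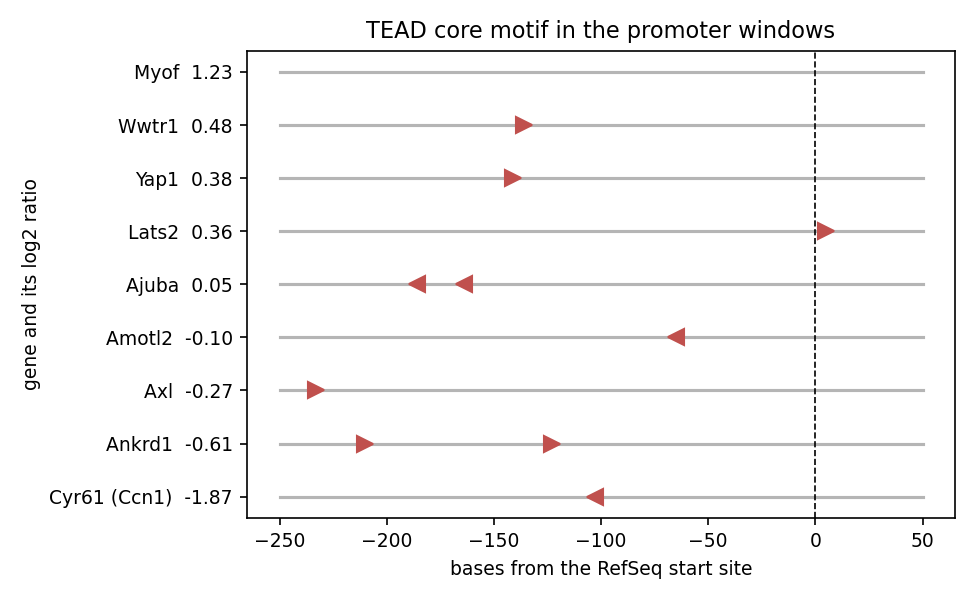
Place of the TEAD core motif in the promoter window of 9 genes, in bases from the RefSeq start site (dashed line); each grey line is the window of 1 gene, a triangle marks a match and points right for the strand of the gene and left for the opposite strand, and the number beside each name is its log2 ratio. Of Wwtr1 and Lats2, which have 2 start sites each, the first is drawn. Ajuba and Ankrd1 hold 2 matches each, and Myof holds none.

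For each list that follows, the shares to compare with are those of all genes tested: 5.09% were higher and 9.98% lower past 1, and 2.71% and 5.60% past 1.5. The quartiles of the ratios of all genes tested were -0.48 and 0.35, around a median of -0.015. The share of all genes with a ratio above 0 was not counted, so counts of ratios above 0 have no background beside them. The TEAD factors, through which YAP and TAZ bind DNA, differed in their proportions between the libraries. None of the 4 was past 1.5, and their median log2 ratio was -0.26. Tead4 had 692 control and 1513 senescent reads and a ratio of 1.36 on the log2 scale (1.23 to 1.49), and was the only one past 1. Tead1 had 3297 and 2756 reads and a ratio of -0.029 on the log2 scale (-0.10 to 0.044). Tead2 (654 and 394 reads) stood at -0.50 (-0.69 to -0.32) and Tead3 (449 and 207 reads) at -0.88 (-1.13 to -0.65). Per length, Tead1 was the most abundant TEAD transcript in the control, with 38.0% against 30.1% for Tead4, and in the senescent library Tead4 held 57.1% and Tead1 27.6%. With the longest transcript as length, Tead4 went from 25.6% to 52.1%. Of the VGLL cofactors, which compete with YAP and TAZ for the TEAD factors, 2 of 4 had enough reads, none was past 1 and their median was -0.57. Vgll4, a known repressor of TEAD, had 2524 and 1729 reads and a ratio of -0.32 on the log2 scale (-0.41 to -0.23), and Vgll3 had 164 and 79 reads and a ratio of -0.82 on the log2 scale (-1.23 to -0.43). Vgll1 and Vgll2 had no reads.

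In the Hippo kinase core none of the 7 genes, Lats2 among them, was past 1 in either direction. Their median log2 ratio was 0.57, and 6 of 7 ratios were above 0 under all 4 scalings. The co-factors of LATS had the highest ratios, 0.88 (0.83 to 0.93) for Mob1a, with 5262 and 8244 reads, and 0.70 (0.62 to 0.77) for Mob1b, with 2426 and 3351 reads. Lats1 stood at 0.61 with 2276 and 2954 reads, Stk4 at 0.57 with 2187 and 2775 reads, and Sav1 at 0.23 with 3063 and 3065 reads. Stk3 was the exception, with 1384 and 950 reads and a log2 ratio of -0.31 (-0.43 to -0.19). Of 19 upstream regulators, 17 had enough reads, and 1 was past 1 and none past 1.5, with a median of -0.049 that became 0.070 with a minimum of 1 or of 100 reads. The exception was Map4k1, a kinase of blood cells, with 46 and 14 reads and a log2 ratio of -1.43 (-2.46 to -0.60). Rassf6 (459 and 770 reads) had the highest ratio, 0.97, and Nf2, whose product merlin recruits LATS to the membrane, had 4256 and 3503 reads and a log2 ratio of -0.051 (-0.12 to 0.014). The STRIPAK complex removes phosphate from the MST kinases. Of its 12 genes 11 had enough reads, none was past 1, and their ratios ran from 0.054 to 0.49 with a median of 0.29. All 11 were above 0, or 9 of 11 with total-count scaling, and their median lay inside the quartiles of all genes tested.

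Among 17 proteins that bind YAP and TAZ or take part in their turnover, all with enough reads, 1 fell past 1.5, 1 was higher past 1 and the median was 0.44. The gene that fell was Amot, the founding member of the angiomotin family, with 2206 control and 603 senescent reads and a log2 ratio of -1.64 (-1.77 to -1.51). Its relatives did not follow it: Amotl1 had 1991 and 2398 reads and a ratio of 0.50 on the log2 scale (0.41 to 0.58), and Amotl2 was given above. Per length, Amot went from 24.9% to 9.17% of the angiomotin transcripts. The 14-3-3 gene Ywhag had 8649 and 16076 reads and a ratio of 1.12 on the log2 scale (1.09 to 1.16), and Ctnna1, which encodes alpha-catenin, had 14513 and 21220 reads and a ratio of 0.78 on the log2 scale (0.75 to 0.81). The LIM proteins that, like AJUBA, bind the LATS kinases had a median of -0.28 over 6 genes with Ajuba included, and 1 was past 1 and none past 1.5. Zyx, which encodes the focal adhesion protein zyxin, had 6538 and 2359 reads and a ratio of -1.24 on the log2 scale (-1.31 to -1.17). Trip6 (1344 and 728 reads) stood at -0.65, Lpp (5947 and 3634 reads) at -0.48, Wtip (727 and 586 reads) at -0.081 and Limd1 (4441 and 4067 reads) at 0.10. With total-count scaling all 6 were below 0.

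Targets outside the 8 also had ratios on both sides of 0. Of 15 other genes of a published YAP and TAZ signature, 14 had enough reads, none was past 1.5, 1 was higher and 1 lower past 1, and the median was 0.23. This median was 0.13 with total-count scaling, where 7 ratios were above 0 and 7 below it in place of 8 and 6, and 0.093 or 0.34 with a minimum of 1 or of 100 reads. Igfbp3 had 650 and 1240 reads and a ratio of 1.16 on the log2 scale (1.02 to 1.30), followed by Crim1 at 0.97, with 2238 and 3747 reads. At the other end, Tgfb2 had 327 and 136 reads and a ratio of -1.03 on the log2 scale (-1.34 to -0.74), and Nuak2, a kinase of the actomyosin cytoskeleton, had 1717 and 739 reads and a ratio of -0.99 on the log2 scale (-1.11 to -0.86). Of 14 YAP targets studied in liver and biliary cells, all had enough reads, 3 were higher and 3 lower past 1, 1 each way was past 1.5, and the median was 0.036. Over all genes tested these shares were 5.09% and 9.98% past 1 and 2.71% and 5.60% past 1.5. With upper-quartile or total-count scaling this median was below 0, at -0.0021 and -0.069. Areg, which encodes the EGF receptor ligand amphiregulin, rose from 113 to 1629 reads, with a ratio of 4.07 on the log2 scale (3.80 to 4.37), at percentile 99.8. Edn1, which encodes endothelin-1, had only 86 and 25 reads and a ratio of -1.52 on the log2 scale (-2.26 to -0.90). It was called lower, but not with a prior count of 5, where the ratio was -1.40, nor at an assumed CV of 0.4. The cyclin gene Ccnd1 had 26692 and 49447 reads and a ratio of 1.12 on the log2 scale (1.10 to 1.14), and the Notch ligand gene Jag1 had 5247 and 8986 reads and a ratio of 1.01 on the log2 scale (0.96 to 1.06). Krt7 had 3248 and 1026 reads and a ratio of -1.43 on the log2 scale (-1.54 to -1.33), which total-count scaling took to -1.54 and past the threshold, and Spp1, which encodes osteopontin, had 25430 and 10580 reads and a ratio of -1.04 on the log2 scale.

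Of 9 further relatives and ligands of the 10 genes, 4 had enough reads, with a median of 0.0032, which was below 0 under the 3 other scalings (-0.10 with total counts) and 0.46 with a minimum of 1 read, and 1 was past 1.5. This was the ferlin gene Fer1l6, a relative of Myof, which rose from 269 to 975 reads, with a ratio of 2.08 on the log2 scale (1.89 to 2.29). The ferlin genes Dysf and Fer1l5 were under 10 reads. So were Gas6 and Mertk, the ligand and a relative of Axl, while the other ligand gene Pros1 had 703 and 426 reads and a ratio of -0.49 on the log2 scale (-0.67 to -0.32), and the relative Tyro3 had 206 and 128 reads and a ratio of -0.45 on the log2 scale (-0.79 to -0.13). Ankrd23, a relative of Ankrd1, had 119 and 140 reads and a ratio of 0.46 on the log2 scale (0.10 to 0.83), and Ankrd2 was under 10 reads.

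Cyr61, Ctgf and Ankrd1 also respond to actin through the MRTF and SRF transcription factors, and 19 genes of that branch were examined. Of these, 17 had enough reads, 5 were lower past 1, 2 of them past 1.5, none was higher by the same rules, and the median was -0.18. The genes called lower were nearly silent already in the control. Myl9 went from 14 reads to 0, which is 3.98-fold lower if a floor of 3 reads stands in for the 0. Its counting interval ends at -1.5 on the log2 scale and so also allows a smaller fold. Cnn1 had 18 and 1 reads and a ratio of -3.08 on the log2 scale (-9.32 to -1.28), which depends on the prior count. It was -3.79 with the smaller and -1.83 with the larger of the 2 others tried. Neither was called with a minimum of 100 reads. Among abundant genes, Cnn2, a calponin of non-muscle cells, had 3507 and 1356 reads and a ratio of -1.14 on the log2 scale (-1.23 to -1.05), and Zyx belongs to this list too. Filip1l had 674 and 259 reads and a ratio of -1.15 on the log2 scale (-1.36 to -0.94). Vcl, which encodes vinculin, had 8558 and 11076 reads and a ratio of 0.60 on the log2 scale (0.56 to 0.64), while Srf itself stood at 0.30, with 1654 and 1742 reads, and Mkl1, which encodes an MRTF, at 0.40, with 1201 and 1355 reads. Tpm2 had a log2 ratio of 1.51 from 3 and 9 reads, and its interval, -0.19 to 4.34, holds 0.

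**Figure D5:**
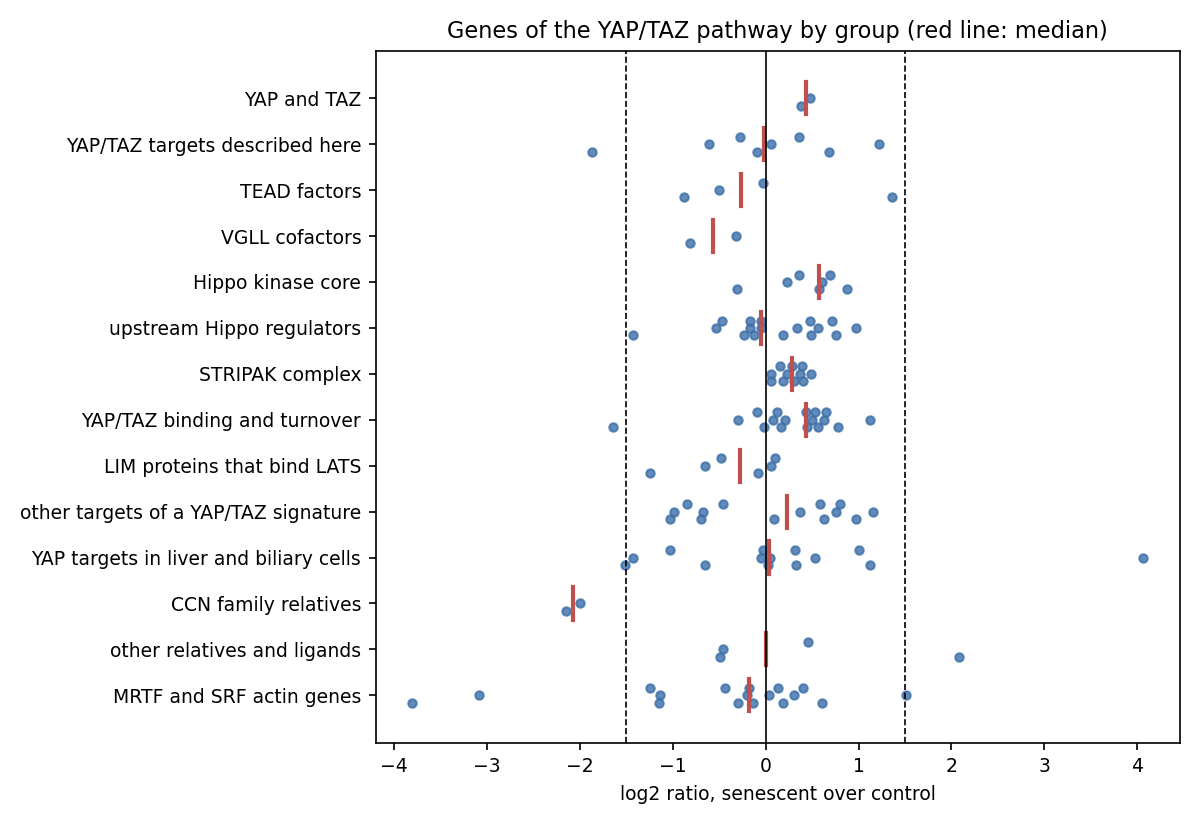
Log2 ratio of senescent over control of each gene with at least 10 reads (blue points), by group of the pathway, with the median of the group as a red line and 1.5 in either direction as dashed lines; the vertical place of a point within its group has no meaning, and a gene on 2 lists is drawn in both. The kinase core has the highest median of a Hippo group, 0.57, and Areg, at 4.07, lies far to the right of the other liver targets.

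The cell type was checked by marker genes. Of 12 hepatocyte markers all had enough reads, and their summed level was a TMM-scaled CPM of 8542 in control and 10198 in senescent cells, with Krt8 the most abundant. Krt8 and Krt18 lead this sum, with log2 ratios of 0.51 and 0.82. Without these 2, a choice made after seeing the data, the sum was 3043 and 1903. Apob, with 22158 and 25094 reads, stood at 0.41. Over the 12 markers 7 ratios were above 0 and 5 below it, with a median of 0.082. Hnf4a, the transcription factor that defines hepatocytes, had 8187 and 7705 reads and a ratio of 0.14 on the log2 scale (0.097 to 0.19), while 2 of the 12, Alb (32076 and 2917 reads, a log2 ratio of -3.23) and Apoa1 (2026 and 197 reads, -3.13), fell and Cps1 (19 and 55 reads, 1.71) rose, the last not at an assumed CV of 0.4 or a minimum of 100 reads. Serpina1a (102 and 32 reads) stood at -1.42, or -1.52 and past the threshold with total-count scaling, and Ttr (23146 and 10486 reads) at -0.91. Of 7 cholangiocyte markers 6 had enough reads, and their summed level was a CPM of 1997 and 1486, with Spp1 the most abundant in the control (874, beside 787 for Krt19) and Krt19 in the senescent cells (773, beside 427 for Spp1). Cftr rose from 44 to 176 reads, with a ratio of 2.20 on the log2 scale (1.75 to 2.74), and Epcam had 0 and 1 reads. Of these markers Krt7, Krt19, Sox9 and Spp1 are also among the liver targets of YAP. The 12 fibroblast and stellate cell markers, whose cells express Ctgf and Cyr61 strongly, came to 74 control reads and 17 senescent reads. Of these, Col1a2, Col3a1, Lum, Thy1 and Acta2 were at 0 in both, and the most abundant was Postn with 47 and 7 reads, which was called lower as was Col1a1 with 21 and 1 reads, neither of them with a minimum of 100 reads. The 7 endothelial markers came to 6 and 13 reads with the most from Pecam1 in the control (4 and 4) and from Kdr in the senescent cells (0 and 5), and Erg and Emcn were at 0 in both. Of 9 macrophage markers Adgre1, C1qa, Marco and Clec4f were at 0 in both libraries, and nearly all of the 5628 and 2035 reads of the list were from Cd14, with 5551 and 1879. Ptprc (27 and 76 reads, 1.68) and Csf1r (15 and 40 reads, 1.58) were called higher at these low counts, Csf1r not with total-count scaling (1.47), a prior count of 5 (1.36) or a minimum of 100 reads, and neither of them at an assumed CV of 0.4. The part of the lower Alb and Apoa1 levels in the ratios of the YAP and TAZ genes was not tested.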

How the data were processed

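RNAseq of control and peroxide-treated AML12 cells was used, with 1 library per condition. The deposited values were raw counts of reads for each Ensembl gene, and the submitters' processing notes name CASAVA, STAR, DESeq2, edgeR and mm10. The counting tool and the use of strand are not given in the sources used here. The 2 columns were matched to the samples by the initials of their titles. Counts were scaled with TMM in edgeR 4.0.16 (R 4.3.3) and, as alternatives, with DESeq2 1.42.0 size factors, upper quartiles and total counts. Ratios, with a prior count of 1 in proportion to library size, came from scipy 1.17.1, pandas 2.3.3 and numpy 2.4.6 under Python 3.11.15, and plots from matplotlib 3.10.9. A gene with no read in a library and over 3 in the other has its fold computed against a floor of 3 reads, which is not the limit of its counting interval. The plan had this for any gene with up to 3 reads in a library, and those with 1 to 3 instead keep their ratio and counting interval. No test was made, because edgeR's quasi-likelihood test and DESeq2's test estimate the dispersion from replicates and each condition was 1 library. Symbols, exon lengths and positions came from GENCODE M21, which gave a symbol to 34490 of the 35275 genes, and promoters from RefSeq. The 10 genes and the lists were chosen with earlier results of these data known. Of a list of up to 7 genes all could be named, and of a longer list up to 4 with the largest ratios each way and any past 1.5 could be named. Nf2, Cnn2, Amotl1, Hnf4a, the genes overlapping Ctgf, Yap1 and Lats2, and the genes neighbouring the 10 fall outside this rule and were chosen after their values were seen. The calculation was tested on simulated data.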

Additional observations from a re-analysis of the deposited data

How the results depend on the processing

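Cyr61 was past the threshold of 1.5 under every scaling and prior count tried, with log2 ratios from -1.98 to -1.87. The read minimums, which its 2506 and 583 reads exceed, and the assumed variation could not change this ratio. At an assumed variation of 0.4 its interval, -3.48 to -0.27, lay below 0 but reached inside -1.5. At a threshold of 2 the number of the 10 genes past it was 0, and at 1 it was 2. The genes called higher and lower, 390 and 805, became 141 and 395 with at least 100 reads, 732 and 1435 at a threshold of 1, and 219 and 460 at 2, and a prior count of 5 left 259 higher. For the lists, the number of genes past a threshold of 1 was 1 for the TEAD factors, 1 for the upstream regulators, 2 for the binding and turnover proteins, 1 for the LIM proteins, 2 for the signature, 6 for the liver targets and 5 for the actin genes. At 2 it was 0 for the binding and turnover proteins, 1 for the liver targets and 1 for the CCN relatives. Total-count scaling put 1 upstream regulator, Map4k1, past 1.5 and left 3 liver targets past it in place of 2, with Krt7 added, at least 100 reads left 1 CCN relative and 0 actin genes, and a prior count of 5 or an assumed variation of 0.4 left 1 liver target. Total-count scaling took the following list medians outside the counting interval of the middle gene of their list, which leaves out the spread among genes. They became 0.47 for the kinase core, -0.16 for the upstream regulators and 0.18 for the STRIPAK genes. The binding and turnover proteins came to 0.33 and the actin genes to -0.29 (-0.22 with upper quartiles). These changes follow from the construction of each setting. No called value changed sign. No replicate could be left out and no paired analysis was possible because each condition was 1 library.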

Other observations

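The nearest protein-coding genes with at least 10 reads on either side of each of the 10 genes were examined after seeing the data. Of these 20 neighbours, 10 had a log2 ratio above 0 and 10 below it, and 2 were past the threshold of 1.5, both lower, where 5.60% of all genes tested were called lower and 2.71% higher. Birc3, an inhibitor of apoptosis whose gene lies 58.8 kb from Yap1, had 1178 control and 304 senescent reads and a ratio of -1.72 on the log2 scale (-1.91 to -1.54), beside 0.38 for Yap1. Cfap300, on the other side of Yap1 and 17.1 kb away, had 40 and 12 reads. Its ratio of -1.44 on the log2 scale (-2.57 to -0.55) was just inside the threshold with TMM scaling. Cyp2s1, a cytochrome P450 gene 13.8 kb from Axl, had 793 and 170 reads and a ratio of -1.99 on the log2 scale (-2.24 to -1.75), beside -0.27 for Axl. Of the neighbours of Cyr61, Znhit6, 42.2 kb away, had 546 and 764 reads and a ratio of 0.71 on the log2 scale (0.55 to 0.88), and Ddah1, 109 kb away, had 3876 and 2121 reads and a ratio of -0.64 on the log2 scale (-0.72 to -0.56).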
